A study of Mus musculus with 4 samples.

Results

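The response to doxycycline (dox) was read in Sca1+ cells sorted from Comma D beta, a mouse mammary epithelial cell line. It rests on 2 of the 4 arrays of the series: Sca1+ cells given dox at 100 ng/ml for 1 day, and Sca1+ cells given none. The matching Sca1- cells, with and without dox, supply the other 2 arrays and serve here for comparison. All 4 groups are the same line in DMEM F12 medium with 2% serum, EGF (10 ng/ml) and insulin (5 ug/ml), and 200000 cells of each fraction were sorted after the treatment. A fraction is therefore defined by surface Sca1 at the end of the day with dox, and cells that crossed the sorting gate during that day would be read in their new fraction. What dox controls in these cells, or whether the line is 1 clone, is not given in the sources used; the series title names Bcl11b. Each group is 1 array, so no difference below has a replicate, an error or a p-value, and genes are described by a rule of size.

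Sca1 is a small surface protein of the Ly6 family, anchored in the membrane by a lipid, and it is used to enrich progenitor-like cells from mouse tissues. In the mammary gland, basal cells express keratins 5 and 14 and the factor Trp63, whereas luminal cells express keratins 8 and 18, and lines such as Comma D beta hold cells of mixed phenotype. Bcl11b is a zinc-finger transcription factor that recruits the NuRD corepressor complex, and it is best known for its part in T-cell and skin development.

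Levels are on the log2 scale of the deposited table, where a step of 1 is a 2-fold difference, and the lowest value possible is 3.32, a linear level of 10. A fold that involves this floor is a lower bound and is written "at least". The floor held 44.8% to 48.0% of probe sets on each array, with the largest share on the untreated Sca1+ array, and the array medians ran from 3.48 on that array to 3.70. Of 18194 genes, 12264 were analysed. Their median dox difference was 0.03 in Sca1+ cells and 0.02 in Sca1- cells. The cells carried their epithelial label: 7 of 7 mammary epithelial markers were above the floor on every array, with summed linear levels between 9418.5 and 14305.1. The Sca1 protein is encoded by a gene that has no named probe set here, so the sorting label was not checked on its own transcript. Fewer cells of a type and less RNA per cell cannot be told apart in such bulk samples.

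Bcl11b was higher with dox in Sca1+ cells, at 6.87 untreated and 12.11 with dox by its most intense probe set. This is a 37.9-fold difference, beside 52.0-fold in Sca1- cells (6.29 and 11.99). The 3 other Bcl11b probe sets went the opposite way in Sca1+ cells, each ending at the floor with dox. The brightest of them read 7.52 and the floor in Sca1+ cells beside 6.21 and 5.38 in Sca1- cells, an excess of -3.36 on the log2 scale. The next read 5.85 and the floor beside 5.14 and 4.16, and the faintest read 4.90 and the floor beside the floor on both Sca1- arrays. The direction of Bcl11b thus depends on the probe set. Its paralogue Bcl11a read 6.67 untreated and 4.96 with dox in Sca1+ cells, 3.28-fold lower, and was 1.85-fold lower in Sca1- cells. Of 13 NuRD subunits and partners, 1 differed by 2-fold or more in either fraction: Chd3, a remodelling ATPase, was 10.4-fold higher in Sca1+ cells beside 10.0-fold in Sca1- cells. The shares over all genes analysed were 8.47% higher and 12.9% lower in Sca1+ cells, and 7.2% and 11.3% in Sca1- cells. A count of 1 in 13 lies near the higher shares and is not read as a result about NuRD.

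With dox, 1039 genes (8.47% of those analysed) were at least 2-fold higher in Sca1+ cells and 1581 (12.9%) were at least 2-fold lower. In Sca1- cells there were 883 (7.2%) and 1383 (11.3%). A gene is said below to have moved more in Sca1+ cells when its difference there was 2-fold or more and exceeded the Sca1- difference by a further factor of 2 in the same direction. This held for 145 higher genes (1.18%) and 298 lower genes (2.43%), which are 14.0% of the higher and 18.8% of the lower genes of the fraction. The mirror rule, moved more in Sca1- cells, held for 71 higher genes (0.579%) and 209 lower genes (1.7%). When each array was centred on its median over all probe sets, 145 and 298 became 69 and 526. The share of higher genes among them went from 32.7% to 11.6%, while centring on brighter probe sets gave 41.4%.

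**Figure D1:**
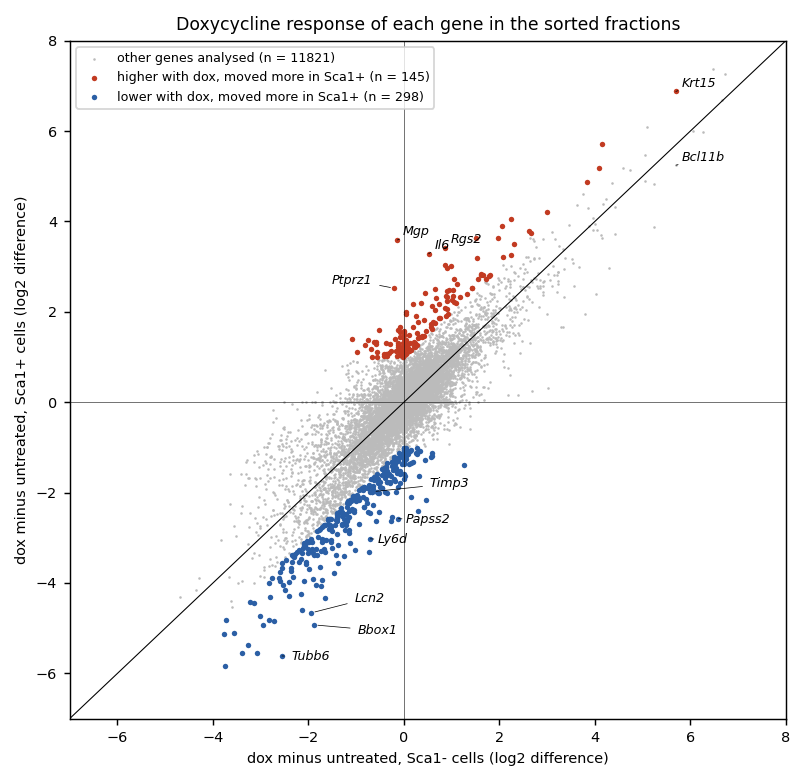
Each point is 1 of the 12264 genes analysed: the horizontal axis is the dox minus untreated log2 difference in Sca1- cells, the vertical axis the same difference in Sca1+ cells, and the diagonal marks equal differences. The 145 higher (red) and 298 lower (blue) genes that moved more in Sca1+ cells lie along the far side of the diagonal, and Mgp, Ptprz1 and Papss2 lie near 0 on the horizontal axis.

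Many of these genes were faint. On a Sca1- array, 40 of the 145 higher and 56 of the 298 lower genes sat at the floor, where the Sca1- difference is only a bound. The genes measured above the floor on both Sca1- arrays and with a linear level of 100 or more somewhere are called bright here. They numbered 40 higher (0.532% of the 7514 genes that reach such a level) and 168 lower (2.24%). Among the 40, the Sca1- difference was under 2-fold in 29 and 2-fold or more the same way in 11. Among the 168, the corresponding numbers were 42 and 126. At the edge of the rule, Zyx and Tpd52l1 were just inside, with differences 2.00 and 2.01 times those of Sca1- cells, and Eif4g3 and Myb were just outside at 1.99 and 1.99.

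Other probe sets of the same genes gave a second reading of the same arrays, which is not a replicate. For the 40 higher genes, 21 further bright probe sets of 15 genes were present; 20 were at least 2-fold higher in Sca1+ cells, and the excess over Sca1- cells had the same direction in 21 and reached 2-fold in 14. For the 168 lower genes, 52 further probe sets of 37 genes were present; 51 were lower by 2-fold or more in Sca1+ cells, and the excess had the same direction in 51 and reached 2-fold in 37. Over 1248 genes with a pair of probe sets at 100 or more on all arrays, the excess differed between the pair by a median of 0.14 on the log2 scale, and by 0.39 at the 90th percentile.

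The bright higher and the bright lower genes differed in which array stood apart. For the 40 bright higher genes the median level was 5.58 in untreated Sca1+ cells, against 7.31 in untreated Sca1- cells, 8.09 in dox Sca1+ cells and 8.08 in dox Sca1- cells. In 30 of them untreated Sca1+ cells were at least 2-fold below untreated Sca1- cells, and in 2 dox Sca1+ cells were at least 2-fold above dox Sca1- cells. In these bright genes the low value was thus mostly that of the untreated Sca1+ array, and with dox the fractions read alike, with a median Sca1+ to Sca1- difference of -1.35 without dox and 0.03 with it. The bright rule leaves out genes at the floor on a Sca1- array but keeps those at the floor on a Sca1+ array. By construction it can thus favour genes whose lowest value is in Sca1+ cells, among the higher and the lower genes. Over all 145 higher genes the split was more even. There, 63 had the gap without dox and 49 the gap with dox, with median differences of -0.89 and 0.40. Under centring on all probe sets 19 bright higher genes were left, 18 of them with this gap before dox and 0 with one after it. Whether a technical property of the untreated Sca1+ array, which has the lowest median and the most values at the floor, has a part in this was not tested.

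For the 168 bright lower genes the median level was 8.16 in untreated Sca1+ cells, 7.90 in untreated Sca1- cells, 5.31 in dox Sca1+ cells and 6.24 in dox Sca1- cells. Here the fractions started closer together, and 82 genes were at least 2-fold lower in dox Sca1+ than in dox Sca1- cells. Another 28 had only a gap before dox, with untreated Sca1+ cells at least 2-fold above untreated Sca1- cells, and 58 had neither gap. The median fraction difference was 0.33 without dox and -0.99 with it. Over all 298 lower genes the split was more even, with 106 having the gap before dox and 114 the gap with dox. The excess is, by construction, the fraction difference with dox minus that without, so these gaps describe the same 4 values and are no further evidence.

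**Figure D2:**
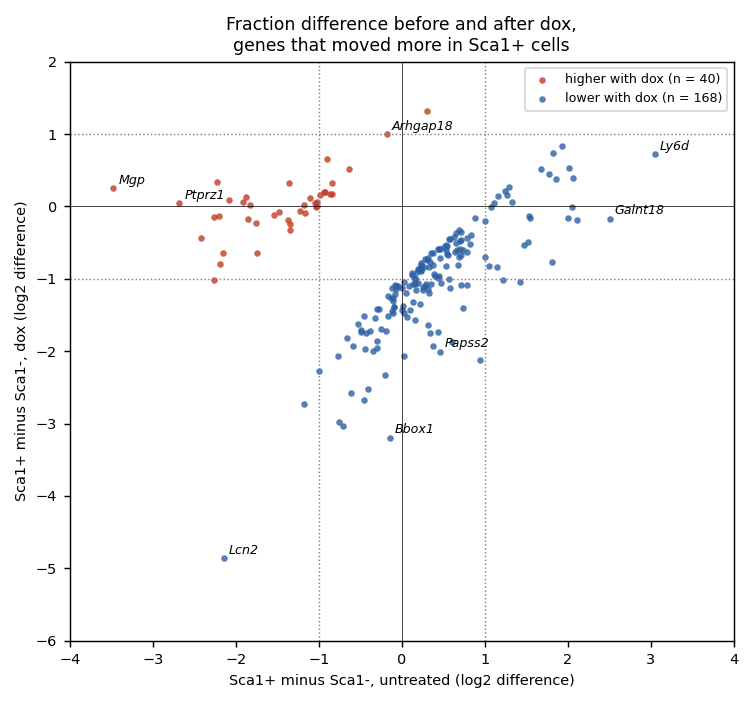
Each point is 1 bright gene that moved more in Sca1+ cells (40 higher with dox in red, 168 lower in blue); the axes give the Sca1+ minus Sca1- log2 difference without dox (horizontal) and with dox (vertical), and dotted lines mark 2-fold. Most red points lie left of the first dotted line and near 0 on the vertical axis, whereas 82 blue points lie below the lower dotted line.

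Mgp, which encodes matrix Gla protein, an inhibitor of calcification in the extracellular matrix, had the largest excess among the higher genes. It read 7.16 in untreated and 10.75 in dox Sca1+ cells, and 10.64 and 10.50 in Sca1- cells. The untreated Sca1+ array alone was low: the difference was 12-fold in Sca1+ cells and 1.10-fold, in the lower direction, in Sca1- cells. Ptprz1, a receptor tyrosine phosphatase, had the same layout, with 4.54 and 7.07 in Sca1+ cells (5.75-fold higher) beside 7.23 and 7.02 in Sca1- cells. Rgs2, a regulator that shortens G-protein signalling, read 4.80 and 8.21 in Sca1+ cells, 10.7-fold higher, and 7.02 and 7.87 in Sca1- cells, 1.80-fold higher. Its other bright probe sets gave excesses of 1.98 and 1.72 on the log2 scale, beside 2.56.

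Of these higher genes, Ptx3, Cxcl5 and Il6 encode secreted immune mediators. Ptx3, a pattern-recognition pentraxin, read 5.47 and 8.51 in Sca1+ cells (8.18-fold higher) and 7.56 and 8.42 in Sca1- cells (1.82-fold). Cxcl5, a neutrophil-attracting chemokine, read 7.26 and 9.45 in Sca1+ cells (4.54-fold higher) and 9.68 and 9.88 in Sca1- cells (1.15-fold). Il6, a cytokine with a level under 100 on every array, read 3.34 and 6.63 in Sca1+ cells, 9.76-fold higher, and 6.02 and 6.54 in Sca1- cells. In all 3 genes untreated Sca1+ cells were the low array.

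Smox, which oxidises the polyamine spermine, read 5.66 and 8.68 in Sca1+ cells (8.06-fold higher) and 7.55 and 8.54 in Sca1- cells, where the 1.99-fold difference lies just under the rule. Gsta4, a glutathione transferase for lipid aldehydes, read 8.18 and 10.19 in Sca1+ cells (4.02-fold higher) and 10.09 and 10.13 in Sca1- cells (1.02-fold). Cyp1b1, a cytochrome P450 of hormones and xenobiotics, read 9.02 and 10.33 in Sca1+ cells, 2.47-fold higher, and 10.87 and 10.49 in Sca1- cells, 1.30-fold lower. In Gsta4 and Cyp1b1 the 3 other arrays lay within 2-fold of each other, and the untreated Sca1+ array stood below them.

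The remaining 4 of the 12 rule-named higher genes also had their lowest value in untreated Sca1+ cells. Cavin2, a caveolar coat protein, was 4.55-fold higher in Sca1+ cells beside 1.27-fold in Sca1- cells. Hectd2, which has a ubiquitin-ligase domain, was 7.85-fold and 1.86-fold higher, Ablim1, an actin-binding LIM protein, 5.47-fold and 1.86-fold, and Anp32a, a nuclear histone chaperone, 5.57-fold and 1.93-fold. Where the Sca1- difference also reached 2-fold, the leading genes were Atp1b1, the beta subunit of the sodium pump, at 12.4-fold in Sca1+ and 2.86-fold in Sca1- cells, the tetraspanin Tspan13 at 6.61-fold and 2.07-fold, and the RNA-binding protein Celf2 at 6.17-fold and 2.16-fold. Dapk1, a death-associated kinase, was 18.4-fold and 8.03-fold higher, but its untreated Sca1+ value of 3.36 lies next to the floor, and with a floor at a linear level of 32 its excess came to 0.02 on the log2 scale. The other 31 genes named by the size of their excess kept it at 2-fold or more under that floor. Of the members of gene lists that moved more, 32 kept the call under it, 6 lost the excess, 7 came under 2-fold in Sca1+ cells and 3 were too faint to be analysed, and values under that floor are given below for the described genes among those that lost the call.

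**Figure D3:**
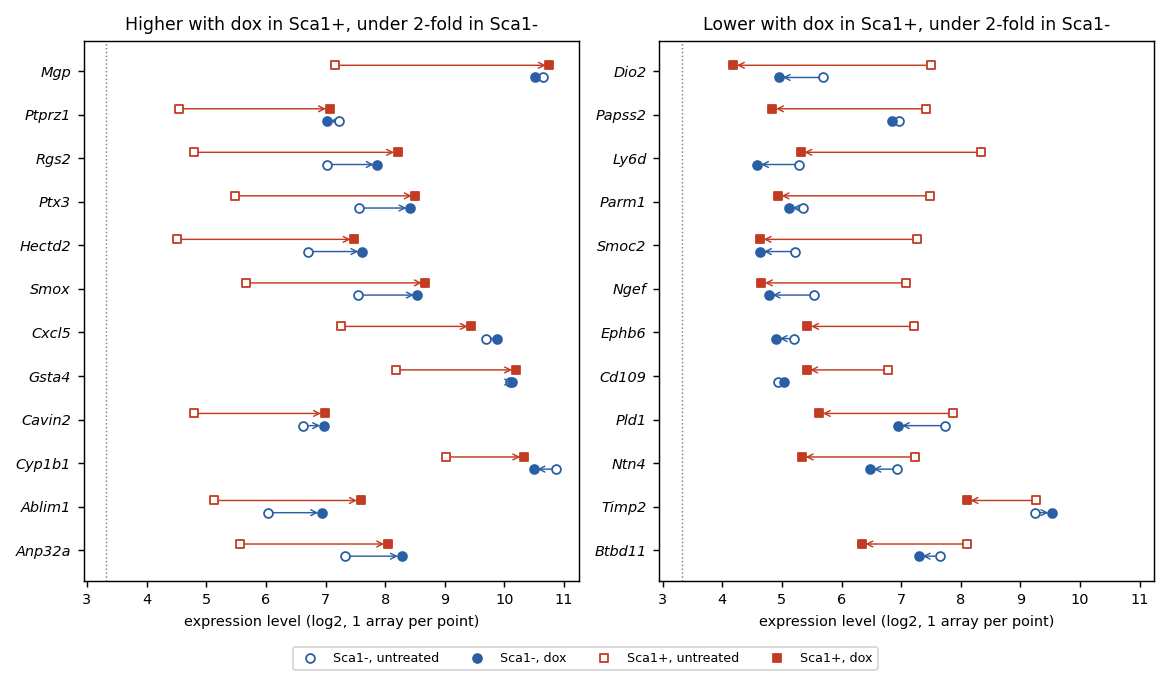
Log2 levels of the 12 higher (left) and 12 lower (right) rule-named genes whose difference in Sca1- cells was under 2-fold; each symbol is 1 array, squares are Sca1+ and circles Sca1- cells, open is untreated and filled is dox, and arrows run from untreated to dox. The dotted line is the floor of 3.32. On the left the open square is the lone low value of most genes, and on the right Papss2 and Timp2 show a lone low filled square, whereas Ly6d and Parm1 show a lone high open square.

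Among the lower genes, some were high in untreated Sca1+ cells alone. Ly6d, a surface protein of the same family as Sca1, read 8.34 and 5.32 in Sca1+ cells, 8.13-fold lower with dox, and 5.29 and 4.59 in Sca1- cells, 1.63-fold lower. Parm1, a mucin-like membrane protein, read 7.48 and 4.93 in Sca1+ cells (5.83-fold lower) and 5.36 and 5.11 in Sca1- cells (1.19-fold lower). Smoc2, a calcium-binding matrix protein, read 7.27 and 4.63 in Sca1+ cells (6.21-fold lower) and 5.22 and 4.64 in Sca1- cells. In these genes dox Sca1+ cells came to within 2-fold of both Sca1- arrays. The guanine-exchange factor Ngef (5.37-fold and 1.69-fold lower), the Eph receptor Ephb6 (3.45-fold and 1.23-fold lower) and the membrane-anchored protein Cd109 (2.58-fold lower beside 1.08-fold higher) had the same layout. The Ly6 and uPAR domain list, 8 analysed members, held 1 higher and 5 lower genes in Sca1+ cells and 1 and 2 in Sca1- cells. For this and later lists, the shares over all genes were 8.47% higher and 12.9% lower in Sca1+ cells and 7.2% and 11.3% in Sca1- cells. The Ly6 list's medians, -1.79 for Sca1+ and -0.82 for Sca1- cells, reached 0 and -0.30 under other settings. Lypd3 was the second Ly6 member to have moved more, 19.5-fold lower in Sca1+ cells beside 5.31-fold in Sca1- cells.

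Other lower genes had their lowest value in dox Sca1+ cells. Papss2, which makes the sulfate donor PAPS, read 7.42 and 4.84 in Sca1+ cells, 5.97-fold lower, and 6.96 and 6.85 in Sca1- cells, 1.08-fold lower. Timp2, an inhibitor of matrix metalloproteinases, read 9.26 and 8.10 in Sca1+ cells, 2.22-fold lower, beside 9.25 and 9.53 in Sca1- cells, 1.22-fold higher. Its 3 other bright probe sets gave larger excesses of -2.0, -2.12 and -2.24 on the log2 scale, so the representative probe set with -1.44 is the smallest of the 4. Dio2, the deiodinase that activates thyroid hormone, read 7.50 and 4.19 in Sca1+ cells (9.93-fold lower) and 5.69 and 4.95 in Sca1- cells (1.66-fold lower); its Sca1+ cells were the higher fraction before dox and the lower one after it. Pld1, a phospholipase, was 4.71-fold lower in Sca1+ cells beside 1.72-fold in Sca1- cells, the secreted guidance protein Ntn4 3.74-fold and 1.36-fold lower, and Btbd11 3.38-fold and 1.27-fold lower.

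The largest excesses among the bright lower genes were in genes that were also lower in Sca1- cells. Tubb6, a beta-tubulin, read 9.98 and 4.37 in Sca1+ cells, 49.0-fold lower, and 9.05 and 6.49 in Sca1- cells, 5.87-fold lower. No other of the 12 tubulin genes analysed moved more in Sca1+ cells. Bbox1, the last enzyme of carnitine synthesis, was 30.4-fold lower in Sca1+ (9.29 and 4.36) and 3.67-fold lower in Sca1- cells (9.43 and 7.56). Galnt18, a glycosyltransferase, was lower by at least 20.2-fold in Sca1+ cells and by 3.17-fold in Sca1- cells. Its Sca1- levels of 5.15 and 3.49 are faint, and with the floor of 32 its Sca1- difference was -0.15. Gas1, a membrane protein first described in growth-arrested cells, was 24.2-fold and 4.40-fold lower, and the lysosomal protease Ctsh 30.3-fold and 7.74-fold lower.

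Lcn2, Cp and Cebpb lay among these genes. Lcn2, lipocalin 2, binds bacterial siderophores and is an acute-phase protein. It read 9.89 and 5.23 in Sca1+ cells, 25.3-fold lower with dox, and 12.03 and 10.09 in Sca1- cells, 3.83-fold lower. Sca1+ cells were thus the lower fraction at both times, and dox Sca1+ cells stood far below the 3 other arrays. Cp, ceruloplasmin, a copper-carrying acute-phase ferroxidase, read 11.40 and 7.35 in Sca1+ cells (16.6-fold lower) and 12.16 and 10.33 in Sca1- cells (3.56-fold lower). Its other bright probe sets gave smaller excesses of -1.99, -1.76, -1.20, -0.89, -0.73 and -0.39 on the log2 scale, beside -2.22. Cebpb, a C/EBP transcription factor of inflammation and mammary differentiation, read 10.96 and 7.03 in Sca1+ cells (15.3-fold lower) and 11.42 and 9.70 in Sca1- cells (3.30-fold lower). Its second probe set gave an excess of -2.14 beside -2.21 on the log2 scale.

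The 250 bases before the start of Lcn2 and Cp are shown as examples of lower genes with a match to TTGCNNAA, a C/EBP motif. They come from the RefSeq promoter table of build GRCm38.p6, 5′ to 3′ on the strand of the gene, with the match in capitals. The Lcn2 window is chr2:32387740-32387989 on the minus strand, and its match starts 216 bases before the gene's start. The Cp window is chr3:19956999-19957248 on the plus strand, 1 of 2 windows of the gene, and its match lies on the opposite strand, 70 bases before the start.
Lcn2: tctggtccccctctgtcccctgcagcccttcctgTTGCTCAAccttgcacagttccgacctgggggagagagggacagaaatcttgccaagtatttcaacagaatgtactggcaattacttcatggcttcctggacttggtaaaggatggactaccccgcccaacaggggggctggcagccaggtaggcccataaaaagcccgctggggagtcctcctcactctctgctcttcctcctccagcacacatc
Cp: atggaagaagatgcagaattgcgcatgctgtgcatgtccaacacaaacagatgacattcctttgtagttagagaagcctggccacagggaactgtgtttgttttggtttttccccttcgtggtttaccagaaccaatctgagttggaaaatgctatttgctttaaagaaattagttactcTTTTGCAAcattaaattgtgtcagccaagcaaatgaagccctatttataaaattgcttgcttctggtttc

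Both strands of such windows were searched for 4 motifs, and a match is a description of letters, not a site of binding. TTGCNNAA was present in 22 of 157 windows (14.0%) of 127 bright lower genes, in 4 of 49 windows (8.16%) of 32 bright higher genes, and in 7.67% of the windows of genes analysed. TGACCA, a motif described for the paralogue BCL11A, was in 8.92% of the lower and 6.12% of the higher windows, beside 9.65%. TGACTCA, an AP-1 motif, was in 5.73% and 6.12%, beside 3.45%. An NF-kB motif with variable middle bases was in 1.91% and 2.04%, beside 1.44%. Genes with several starts are counted more than once, so the windows are not independent. Some genes that were higher with dox also hold TTGCNNAA, such as Ptx3 and Il6, at 57 and 128 bases before the start. The part of Cebpb in any of these genes was not tested.

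The list of chemokines, cytokines and acute-phase genes, 30 analysed, held 6 higher and 10 lower genes in Sca1+ cells and 4 higher and 9 lower in Sca1- cells. Besides Cxcl5, Il6, Lcn2 and Cp, members that moved more in Sca1+ cells were Nfkb2, an NF-kB subunit, 3.74-fold lower beside 1.37-fold (an excess of -0.98 under the floor of 32), and the antimicrobial Defb1, 3.02-fold lower in Sca1+ cells and at the floor on both Sca1- arrays. Hp, the haemoglobin-binding haptoglobin, had differences of at least 19.8-fold and of 25.9-fold, both downward, in Sca1+ and Sca1- cells. Because the first is a bound, which of them is the larger cannot be read. Interferon-stimulated genes were higher in both fractions, 18 of 27 in Sca1+ cells with a median of 1.44 and 15 in Sca1- cells with a median of 1.05, and 1 of them, Irf7, moved more in Sca1+ cells (3.08-fold higher beside 1.5-fold, with the excess at 0.75 under the floor of 32). The immunoproteasome subunit Psmb8 went the other way, 8.34-fold lower in Sca1+ cells beside 3.10-fold in Sca1- cells, but its excess came to -0.31 under that floor.

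For the lists below, the median excess over all genes analysed was -0.01, so signs below and above 0 were near an even split. Under centring on all probe sets that median was -0.24. Matrix proteases and their inhibitors had an excess below 0 in 18 of 21 genes. Of these genes 5 were higher and 7 lower with dox in Sca1+ cells, against 8 higher and 2 lower in Sca1- cells, and the medians were 0.00 and 0.35. Of the 5 that moved more in Sca1+ cells, 3 encode protease inhibitors: Timp2, Timp3 and Slpi. Timp3 read 11.40 and 9.42 in Sca1+ cells (3.94-fold lower) and 11.83 and 11.17 in Sca1- cells (1.58-fold lower), and its 3 other probe sets had excesses of -0.81, -1.05 and -1.19. Slpi, an inhibitor of leukocyte proteases, was 8.67-fold lower in Sca1+ cells beside 4.13-fold in Sca1- cells. The metalloproteinase Mmp11 and the secreted serpin Serpinf1 ended at the floor, with bounds of 2.74-fold and 2.46-fold on their lower levels, and were too faint to be analysed with the floor of 32. The collagenase Mmp13 and the plasminogen activator Plat were far higher in both fractions. Plat had no 2-fold excess, at 29.6-fold in Sca1+ and 33.1-fold in Sca1- cells. Mmp13, at the floor in untreated Sca1+ cells, was at least 153-fold higher there, beside 105-fold in Sca1- cells. The first is a bound, so whether the excess of Mmp13 reaches 2-fold is not known.

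Structural matrix genes, 29 analysed, held 9 higher and 8 lower genes in Sca1+ cells and 8 higher and 9 lower in Sca1- cells. Mgp and Fn1 moved more upward: Fn1, fibronectin, was 4.57-fold higher in Sca1+ cells beside 2.13-fold in Sca1- cells. Postn, periostin, was 8.29-fold lower in Sca1+ cells beside 3.21-fold in Sca1- cells. Among TGF-beta pathway genes, 17 analysed, 1 was higher and 6 lower in Sca1+ cells, against 2 and 6 in Sca1- cells. Tgfbi, a matrix protein induced by this pathway, read 11.06 and 5.50 in Sca1+ cells (47.0-fold lower) and 9.05 and 5.66 in Sca1- cells (10.5-fold lower), and its 3 other probe sets had excesses of -1.85, -2.55 and -2.93. Thbs1, thrombospondin, was 14.8-fold and 6.14-fold lower, and Smad7, the inhibitory SMAD, 3.82-fold and 1.81-fold lower. The ligand Bmp7 was lower by at least 15.0-fold in Sca1+ cells, beside 3.74-fold in Sca1- cells.

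Wnt pathway genes, 30 analysed, held 3 higher and 13 lower genes in Sca1+ cells, against 2 and 8 in Sca1- cells. Lgr6, a receptor of R-spondins that marks epithelial progenitors, read 8.96 and 5.57 in Sca1+ cells (10.5-fold lower) and 8.23 and 6.97 in Sca1- cells (2.39-fold lower). Sfrp1, a secreted Wnt antagonist, was 8.62-fold lower in Sca1+ cells beside 2.19-fold in Sca1- cells. Of the ligands, Wnt4 was 8.57-fold and 3.99-fold lower, Wnt5a was 2.11-fold lower beside 1.27-fold higher, and Wnt9a was lower by at least 4.01-fold in Sca1+ cells. The nuclear effector Lef1, at the floor in both untreated fractions, was at least 2.74-fold higher in Sca1+ cells. Wnt5a, Wnt9a and Lef1 are faint: with the floor of 32 the differences of Wnt5a and Wnt9a in Sca1+ cells were -0.16 and -0.33, and Lef1 was not analysed. Over the list 17 of 30 genes had an excess below 0, near the split over all genes, so this count says little about the list.

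Targets of YAP and TEAD, factors that respond to cell tension, had an excess below 0 in 12 of 13 genes, with medians of -0.85 in Sca1+ and -0.24 in Sca1- cells. Axl, a receptor kinase, was 10.5-fold lower in Sca1+ cells beside 5.11-fold in Sca1- cells (an excess of -0.59 with the floor of 32), and F3, tissue factor, 3.76-fold and 1.86-fold lower. In the remaining gene, Ankrd1, the difference was at least 2.09-fold in Sca1+ cells and 5.84-fold in Sca1- cells, both downward, and its Sca1+ value with dox was the floor, so the sign of its excess is not known. Vegfa, the angiogenic growth factor of the hypoxia list, read 8.15 and 5.26 in Sca1+ cells (7.42-fold lower) and 7.99 and 6.83 in Sca1- cells (2.23-fold lower). It was the 1 gene of 17 listed that moved more, beside 2.43% of all genes that moved more downward, so this count says little about the list. Of the 17 genes, 1 was higher and 6 lower in Sca1+ cells, against 2 and 5 in Sca1- cells, with medians of -0.53 and -0.52.

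The ATF4 and NRF2 lists had medians below 0 in both fractions, and the p53 list did not. Of 21 genes of the ATF4 amino acid response, 1 was higher and 12 lower in Sca1+ cells, against 1 and 7 in Sca1- cells, with medians of -1.11 and -0.75. Besides Cebpb, the members that moved more were Pck2, mitochondrial PEP carboxykinase (14.8-fold and 6.75-fold lower), the pseudokinase Trib3 (5.96-fold and 2.95-fold lower) and Nupr1 (3.75-fold and 1.83-fold lower). Of 20 NRF2 and glutathione genes, 2 were higher and 7 lower in Sca1+ cells and 0 and 5 in Sca1- cells, with medians of -0.88 and -0.61. The carbonyl reductases Cbr2 (28.1-fold and 13.3-fold lower) and Cbr3 (6.55-fold and 2.32-fold lower), Srxn1 and Osgin1 moved more downward, while Gsta4 moved more upward. Under the floor of 32 the excesses of Srxn1 and Osgin1 were -0.07 and -0.02. Of 25 p53 targets, 4 were higher and 3 lower in Sca1+ cells and 3 and 2 in Sca1- cells, with medians of 0.12 and 0.15. There, 2 moved more, Fas upward (4.96-fold beside 1.60-fold) and Phlda3 downward (16.0-fold beside 7.06-fold). Fas lay next to the floor in untreated Sca1+ cells, at 3.45, and with the floor of 32 its Sca1+ difference was 0.76, under 2-fold.

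Genes of epithelial identity gave no single direction. Of 15 basal genes, 2 were higher and 5 lower in Sca1+ cells, against 2 and 4 in Sca1- cells, and the median was -0.59 beside -0.10 in Sca1- cells. The defining basal keratin Krt5 read 11.46 and 7.47 in Sca1+ cells (15.9-fold lower) and 10.77 and 7.63 in Sca1- cells (8.76-fold lower), an excess under 2-fold. The P-cadherin gene Cdh3 and the integrin subunit Itgb4 were 4.63-fold and 4.05-fold lower in Sca1+ cells, beside 3.22-fold and 2.70-fold in Sca1- cells. Krt15, a keratin of basal stratified epithelium, was higher by at least 118-fold in Sca1+ cells, beside 51.9-fold in Sca1- cells. Its untreated values were the floor and 4.69, and with the floor of 32 its excess turned to -0.19. Vim, vimentin, was 3.66-fold and 1.66-fold higher. Krt17 was 2.16-fold lower beside 1.07-fold, and Lamb3, a chain of laminin-332, 7.87-fold and 3.47-fold lower. Of 20 luminal genes, 4 were higher and 9 lower in Sca1+ cells, and 2 and 11 in Sca1- cells, with medians of -0.67 and -1.14. Cldn7, Krt7 and Krt8 were 6.95-fold, 5.71-fold and 3.32-fold lower in Sca1+ cells, beside 4.91-fold, 5.51-fold and 3.89-fold in Sca1- cells. Cldn1 was 13.7-fold higher beside 8.55-fold. Of the luminal genes that moved more in Sca1+ cells, Wnt4 was lower (8.57-fold beside 3.99-fold), and Gata3 and Kit were higher. The luminal factor Gata3 read 3.90 and 5.22 in Sca1+ cells (2.49-fold higher) and 5.43 and 5.56 in Sca1- cells, and the progenitor receptor Kit 5.14 and 6.34 (2.30-fold higher) and 7.40 and 7.36, both with untreated Sca1+ cells as the low array. Gata3 is not bright, and with the floor of 32 its Sca1+ difference was 0.22, under 2-fold. Of 11 cornified envelope genes, 4 were higher and 1 lower in Sca1+ cells, and 5 and 1 in Sca1- cells. Sprr1a, for example, was 103-fold higher in Sca1+ and 102-fold in Sca1- cells. Of this list, Sprr1b moved more upward (52.6-fold, beside at least 17.8-fold) and Ppl, periplakin, downward (at least 5.79-fold, beside 2.21-fold). The Sca1- difference of Sprr1b is a bound, so its excess is not settled, and the excess of Ppl turned to 0.26 with the floor of 32.

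Several other lists had medians between -0.33 and 0.10 in Sca1+ cells. In Sca1+ and Sca1- cells these were -0.20 and -0.32 for 18 glycolytic genes, -0.33 and -0.35 for 14 Notch genes, and 0.05 and 0.05 for 12 BMP genes. For 28 CDK inhibitors and growth-arrest genes they were 0.03 and 0.16, with 4 higher and 2 lower in Sca1+ cells, and Gas1 was the 1 member that moved more there. For 26 immediate-early and ERK feedback genes they were 0.00 and -0.30, and no member moved more in Sca1+ cells. Mesenchymal genes, 11 analysed, had medians of 0.10 and 0.71, although Vim and Fn1 moved more upward in Sca1+ cells. Such medians do not mean that members stayed level. Of the Notch genes, 1 was higher and 5 lower in Sca1+ cells, against 0 and 5 in Sca1- cells. Of the BMP genes, 3 were higher and 4 lower in Sca1+ cells, against 2 and 4 in Sca1- cells.

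**Figure D4:**
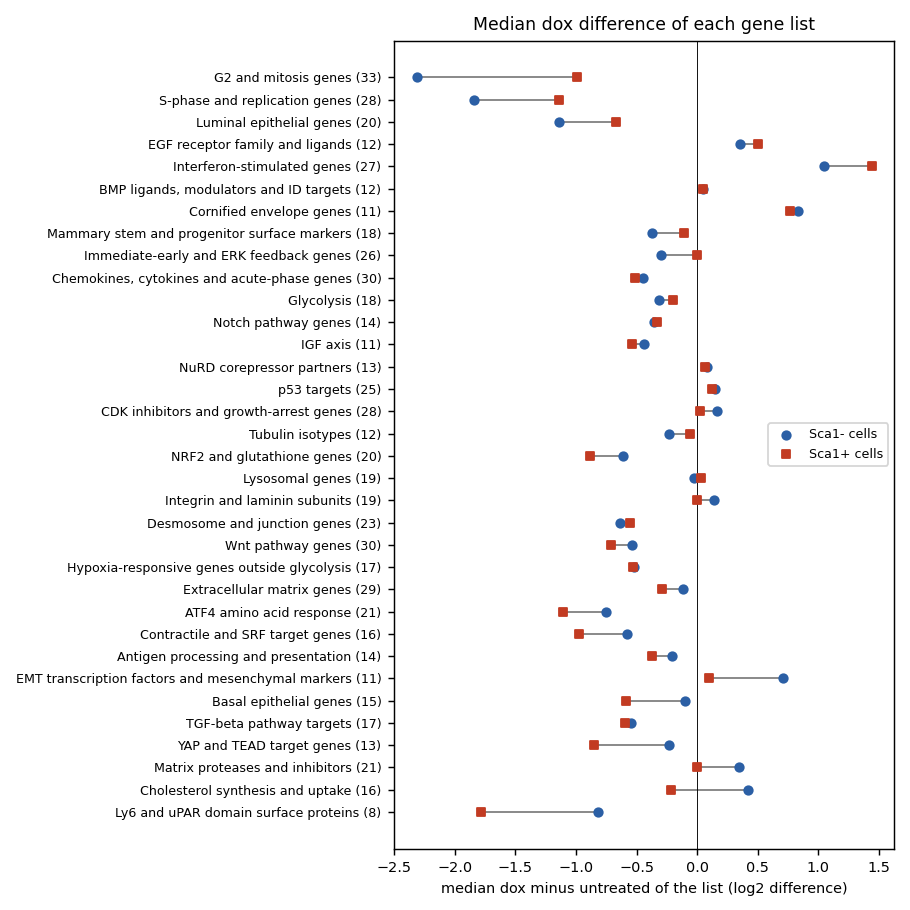
Median dox minus untreated log2 difference of each gene list (number of genes analysed in brackets) in Sca1+ (red squares) and Sca1- cells (blue circles); lines join the fractions, and the lists are ordered by their median excess. The cell-cycle lists at the top have the lower median in Sca1- cells, the cholesterol list lies on opposite sides of 0 in the fractions, and the interferon list is highest in both.

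Proliferation genes had the smaller difference in Sca1+ cells. Of 33 genes of G2 and mitosis, 16 were lower by 2-fold or more with dox in Sca1+ cells, against 33 in Sca1- cells, with medians of -0.99 and -2.32. The excess was above 0 in all 33, and 24 moved more in Sca1- cells. The median level of the list was 9.15 in untreated and 8.11 in dox Sca1+ cells, and 7.72 and 5.49 in Sca1- cells, so Sca1+ cells had the higher level with and without dox. The mitotic kinase gene Aurkb, for example, was 3.24-fold lower in Sca1+ cells beside 8.58-fold in Sca1- cells, and the kinesin Kif11 2.62-fold and 7.77-fold lower. Of 28 genes of S phase and replication, 16 were lower in Sca1+ and 23 in Sca1- cells, with medians of -1.14 and -1.84, and the excess was above 0 in all 28. Tk1, a thymidine kinase of S phase, was 4.79-fold and 12.5-fold lower. This difference in proliferation stands beside each of the gene groups above, and its part in them was not tested.

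Markers of other cell types were low. Of 6 T-cell markers with a probe set, 4 to 6 were at the floor on each array, with a summed linear level of 60.0 to 71.9. Of 6 leukocyte markers 3 to 4 were at the floor (67.0 to 141.5 summed), and of 5 endothelial markers 3 to 5 (50.0 to 53.6 summed). Of 6 fibroblast markers 3 to 5 were at the floor, and their sum was 68.9 in untreated Sca1+, 85.4 in untreated Sca1-, 739.4 in dox Sca1+ and 412.0 in dox Sca1- cells. That sum follows 1 gene, the matrix proteoglycan Dcn, which was at the floor in both untreated fractions and read 9.41 and 8.42 with dox. Of 4 adipocyte markers 3 were at the floor on every array, and Lpl, lipoprotein lipase, was 10.9-fold higher in Sca1+ cells beside 9.48-fold in Sca1- cells. The part of these markers in the differences above was not tested.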

How the data were processed

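RNA of 4 sorted cell groups was measured on 1 Affymetrix array each, labelled from the 3' end per the labels' protocols. The deposited table gives log2 levels of 45101 probe sets; how the authors summarized and scaled them, and with which software, was not given in the sources used here. No scaling was added. A platform annotation gave 34958 probe sets 1 symbol and 932 several, and 9211 were not named. Of several probe sets of a gene, that with the largest mean of the 4 arrays was used, and genes that reached the median of all deposited values, 3.63, on an array were analysed. Differences of log2 levels were taken between arrays, with no test, since 1 array a group leaves no spread; their number limits the precision.

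Named genes were Bcl11b and Bcl11a and, among bright genes that moved more in Sca1+ cells, the 12 higher and 12 lower with the largest excess where the Sca1- difference was under 2-fold. The 4 higher and 4 lower with the largest excess where it was 2-fold or more the same way, list members that moved more and up to 4 other members with the largest difference were added. The members, rules and gene lists were chosen with earlier results of these data known. Alternatives were other centrings, quantile normalization, floors, filters, probe set rules and folds. Python 3.11.15, pandas 2.3.3, numpy 2.4.6 and matplotlib 3.10.9 were used, and the scripts were tested on simulated data.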

Additional observations from a re-analysis of the deposited data

Results flagged for a closer look

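In 2 genes the dox difference reached 2-fold in opposite directions in the fractions; both had linear levels under 100, and the difference between the fractions was not tested. Gfra3, a co-receptor for the neurotrophic factor artemin, read 4.72 in untreated Sca1+ cells and the floor with dox, and the floor and 4.58 in Sca1- cells, an excess of -2.65 on the log2 scale. Srms, a Src-family-related kinase, read the floor and 4.73 in Sca1+ cells and 5.14 and 4.04 in Sca1- cells, an excess of 2.50.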

How the results depend on the processing

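No group has a second array, so no array can be left out. No paired analysis was possible because each group has 1 array. The main counts were 1039 higher and 1581 lower genes in Sca1+ cells, of which 145 and 298 moved more there. Setting the median over all probe sets equal on every array gave 69 and 526 that moved more, and it shifted the median difference of all genes in Sca1+ cells from 0.03 to -0.16 and the median excess to -0.24. A floor at a linear level of 32 gave 670 higher, with 49 and 164 that moved more. Genes with a level of 100 or more gave 579 and 1042, with 47 and 174, by having fewer genes. Genes above the floor on all arrays gave 77 higher that moved more. The mean of all probe sets of a gene gave 94 and 198, and it turned the Bcl11b difference in Sca1+ cells from 5.25 to -0.76, since the 3 other probe sets were lower with dox. A 1.5-fold rule gave 2350 and 2549, with 589 and 833, and a 3-fold rule 409 and 802, with 24 and 58. Where the construction does not show it, the cause was not tested. Among 12 bright counts computed for centrings after seeing the data, those that differed were 19 higher genes, 18 with the gap before dox and 0 with one after it, and 309 lower genes, 68 with the gap before dox, under all-probe-set centring. Of 1269 single-gene values under alternatives, 1135 stayed within a 1.5-fold distance, 133 were beyond it and 1 reversed.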

Other observations

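Cholesterol synthesis and uptake genes lay on opposite sides of 0 in the fractions. Over 16 genes the median dox difference was -0.22 in Sca1+ and 0.42 in Sca1- cells, and the excess was below 0 in 15. Few single differences reached 2-fold: 1 gene, the sterol carrier Stard4, was lower in Sca1+ cells. Another 1 was higher in Sca1- cells and moved more there. Idi1, an isomerase of isoprenoid synthesis, read 9.01 and 8.57 in Sca1+ cells and 8.10 and 8.73 in Sca1- cells, an excess of -1.08. The demethylase Cyp51 read 8.20 and 7.56 in Sca1+ cells, and 7.55 and 7.69 in Sca1- cells. Dhcr7, the last reductase of the pathway, was the exception, 1.58-fold higher in Sca1+ and 1.40-fold in Sca1- cells. Over 9 settings the median ran from -0.41 to -0.18 in Sca1+ and from 0.38 to 0.45 in Sca1- cells.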
